A study of Mus musculus with 8 samples.

Results

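The genes described here encode 8 core components of the machinery that fuses synaptic vesicles with the presynaptic membrane: Snap25, Stx1a, Vamp1, Vamp2, Cplx1, Cplx2, Syt1 and Nsf. They were chosen by name, and all 8 were found among the 22430 genes listed and passed the filter on low counts, which left 16730 genes for testing. Their polyadenylated RNA was sequenced from brain tissue of 8 male C57Bl/6JRj mice, 4 young adults of 6 months (6m) and 4 aged adults of 24 months (24m), with 1 library per animal and no treatment or transgene in either group. The tissue is called whole brain in the labels and whole hemispheres in the methods of the study, so all cell types and regions contributed RNA, and a lower value can mean fewer cells of a type or less RNA per cell, which bulk tissue cannot tell apart. Each library held 63460940 to 103462414 counts, of which these genes took 0.204 to 0.258% in 6m and 0.309 to 0.432% in 24m.

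Neurotransmitter is released when a vesicle protein of the VAMP (synaptobrevin) family pairs with syntaxin and SNAP25 of the plasma membrane in a tight helical bundle, the SNARE complex. Complexins bind the assembled bundle and hold it ready, and synaptotagmin, the calcium sensor of the vesicle, triggers fusion when an action potential lets calcium in. Afterwards the ATPase NSF pulls the spent SNARE complexes apart so that their subunits can be used again.

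Library 24m replicate 1 stood apart from the others, and it bears on several results. Its root mean square difference from the other 24m libraries over all tested genes was 0.636 on the log2 scale, against 0.41 to 0.508 for 24m replicates 2 to 4 and 0.369 to 0.422 among 6m libraries. It was also the deepest library and the 24m library nearest to 6m (0.697 on average, against 0.919 to 1.1 for the other 24m libraries). Values without it are given where they moved by over 1.5 times or changed a call.

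Between ages, Syt1 and Nsf rose at 24m by nearly the same factor, 2.93 and 2.71 respectively, and no fusion gene was called lower in this fit. Expression was compared with the quasi-likelihood test of edgeR over all tested genes, and a gene was called when its adjusted p-value (padj) was at most 0.05 and its log2 fold change (log2FC) reached 0.58 in size. By this rule 2 of the 8 genes were called higher, where 25.3% of all tested genes were, and 0 were called lower, where 18.3% were (43.6% in both directions together). At an unadjusted p under 0.05 the edgeR count of lower genes was also 0, as were those called by DESeq2 and limma-voom. By padj alone, 5 genes were higher (Snap25, Vamp2, Cplx1, Syt1 and Nsf), against 32.7% of tested genes, and 0 were lower, against 29.9% (62.6% in both directions together). In 4 genes (Vamp2, Cplx1, Syt1 and Nsf) all 24m libraries lay above all 6m libraries, as they did in 28.4% of tested genes, and in 0 all lay below, against 26.8%. The median log2FC of the 8 genes was 0.38, and that of all tested genes was 0.00 (-0.00337).

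**Figure D1:**
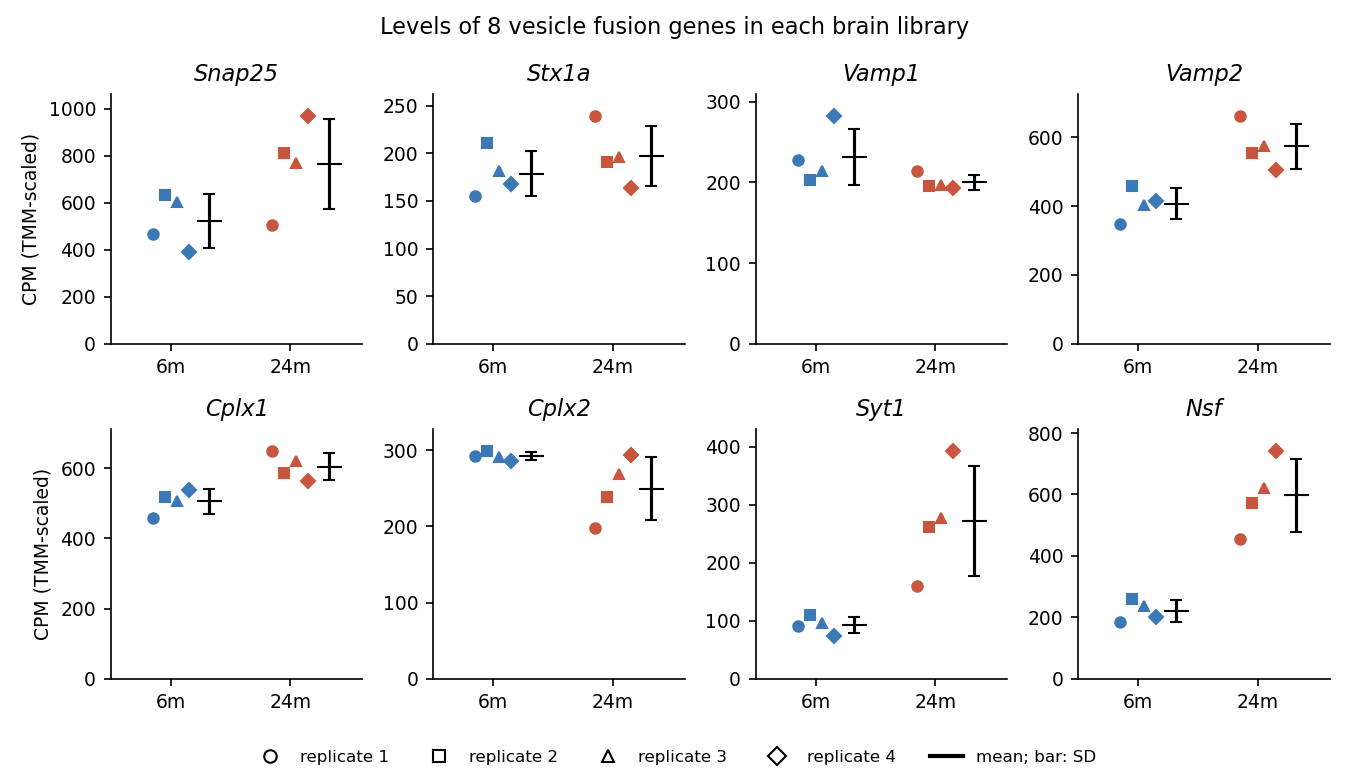
Levels of the 8 fusion genes in each library, in CPM (counts scaled to 1e+06 per library, with totals adjusted by the trimmed mean of M values, TMM), with a linear axis from 0 for each gene; each point is 1 library, its shape gives the replicate number, and the bar beside the points gives the mean and SD of 4 libraries. The 24m libraries of Syt1 (161 to 392 CPM) and Nsf (455 to 740.3 CPM) sit above every 6m library, while the ages overlap for Snap25, Stx1a, Vamp1 and Cplx2.

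Among the SNARE proteins of the plasma membrane, Snap25 (ENSMUSG00000027273, chr2:136533580-136624362, plus strand, GRCm39) contributes a pair of helices to the complex. Its levels were 465, 632, 602 and 391 CPM in 6m replicates 1 to 4 and 506, 811, 767 and 968 CPM in 24m replicates 1 to 4. The lowest 24m library, replicate 1, lay inside the range of 6m, and the other 24m libraries lay above it. The means were 522 ± 114 and 763 ± 192 CPM (SD, n = 4 each), a log2FC of 0.55 ± 0.21 (SE; edgeR padj = 0.0432) that missed the fold threshold. Without 24m replicate 1 the log2FC was 0.72 (padj = 0.00206), and both thresholds were passed. The padj was above 0.05 in 5 of the 8 fits that left out a library (0.0807 to 0.114; 6m replicates 1 and 4 and 24m replicates 2, 3 and 4) and 0.0508 with limma-voom. Without a trend over exonic length it was 0.15 (padj = 0.409), and padj ranged from 0.00189 to 0.409 over all 19 alternatives.

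Stx1a (ENSMUSG00000007207, chr5:135052139-135079963, plus strand) encodes syntaxin 1A, the other SNARE of the plasma membrane. Its levels were 155, 211, 181 and 168 CPM in 6m and 239, 191, 196 and 163 CPM in 24m, in the same order of replicates. The ages overlapped almost fully, and the highest library was 24m replicate 1. The means were 179 ± 23.9 and 197 ± 31.2 CPM, with a log2FC of 0.14 ± 0.13 (padj = 0.370). This difference was within the spread between replicates. It was 0.06 without 24m replicate 1 (padj = 0.657), the lowest of a range up to 0.23 over the libraries left out, and padj ranged from 0.00121 to 0.657 over all alternatives.

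Vamp2 (ENSMUSG00000020894, chr11:68979316-68983210, plus strand) encodes the main vesicle SNARE of forebrain synapses, and its gene spans only 3895 bases. Its levels were 349, 459, 404 and 413.5 CPM in 6m and 661, 553, 575 and 506 CPM in 24m. The ages did not overlap, with the highest 6m library, replicate 2, next to the lowest 24m library, replicate 4. The means were 407 ± 45.1 and 574 ± 65.1 CPM, a log2FC of 0.50 ± 0.11 (padj = 0.00383). It passed the p threshold in all 8 fits that left out a library (padj = 0.00131 to 0.0131), and it was short of the fold threshold in the TMM fit. With the length trend removed (0.60, padj = 0.000616) or the GC trend removed (0.61, padj = 0.000474) it was called higher, within a range of padj of 2.43e-13 to 0.0154 over the alternatives.

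Vamp1 (ENSMUSG00000030337, chr6:125192340-125222927, plus strand) encodes the paralog of Vamp2 that is best known from spinal cord and brainstem. Its levels were 228, 203, 214 and 282 CPM in 6m and 214, 196, 197 and 193 CPM in 24m. The highest 6m library, replicate 4, set most of the spread at 6m, and the ages overlapped. The means were 232 ± 35.1 and 200.2 ± 9.63 CPM, a log2FC of -0.21 ± 0.11 (padj = 0.113). Without 6m replicate 4 the log2FC was -0.10 (padj = 0.310). The sign depended on scaling: it was -0.62 (padj = 0.00643, called lower) after removal of the length trend, and 0.31 (padj = 0.0157) with scaling to sums of counts per exonic length, a setting added after the data were seen, and it was 0.011 with library totals alone (range of padj over the alternatives 0.00643 to 0.918).

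Of the complexins, Cplx1 (ENSMUSG00000033615, chr5:108666416-108697899, minus strand) had levels of 457, 519, 508 and 537 CPM in 6m and 648, 586, 622 and 562 CPM in 24m. All 24m libraries lay above all 6m libraries, with a small spread in both ages. The means were 505 ± 34.5 and 604 ± 38.0 CPM, a log2FC of 0.26 ± 0.09 (padj = 0.0250), less than the fold threshold. The padj rose above 0.05 when 6m replicate 1 (0.0734) or 3 (0.0577) or 24m replicate 3 (0.0704) was left out, within a range of 2.54e-13 to 0.0829 over the alternatives.

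Cplx2 (ENSMUSG00000025867, chr13:54519154-54531730, plus strand) was the steadiest fusion gene at 6m, with 292, 299, 291 and 286 CPM. At 24m its levels were 198, 238, 269 and 294 CPM. Replicate 4 of 24m lay within the 6m range and the other 24m libraries lay below it. The means were 292 ± 5.24 and 249 ± 41.4 CPM, so the spread at 24m was the wider one, and the log2FC was -0.23 ± 0.12 (padj = 0.114). Without 24m replicate 1 the log2FC was -0.11 (padj = 0.231) and without 24m replicate 4 it was -0.31 (padj = 0.0310). With library totals alone it was 0.00048, and with scaling to sums of counts per exonic length it was 0.32 (padj = 0.133), within a range of 0.0310 to 0.998.

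Syt1 (ENSMUSG00000035864, chr10:108333505-108846856, minus strand), the calcium sensor for fast release in forebrain neurons, lies in the longest of these genes, 513352 bases. Its levels were 91.9, 109.7, 95.9 and 74.6 CPM in 6m and 161, 262, 277 and 392 CPM in 24m. All 24m libraries lay above all 6m libraries, and within 24m the highest was 2.44 times the lowest. The means were 93.0 ± 14.4 and 273 ± 94.8 CPM, a log2FC of 1.55 ± 0.24 (padj = 0.000482). Syt1 was called under each of the 19 alternatives, with a log2FC of 1.05 (length trend removed) to 2.11 and a padj of 3.81e-09 to 0.00289, and without 24m replicate 1 its log2FC was 1.76.

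Nsf (ENSMUSG00000034187, chr11:103712592-103844936, minus strand) encodes the ATPase that disassembles SNARE complexes. Its levels were 183.5, 261, 237 and 199.7 CPM in 6m and 455, 572, 621 and 740.3 CPM in 24m. The lowest 24m library was well above the highest 6m library. The means were 220.4 ± 35.3 and 597 ± 118 CPM, a log2FC of 1.44 ± 0.16 (padj = 0.00012). It was called under each of the 19 alternatives, with a log2FC of 0.98 (length trend removed) to 1.98 and a padj of 2.03e-14 to 0.000851.

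**Figure D2:**
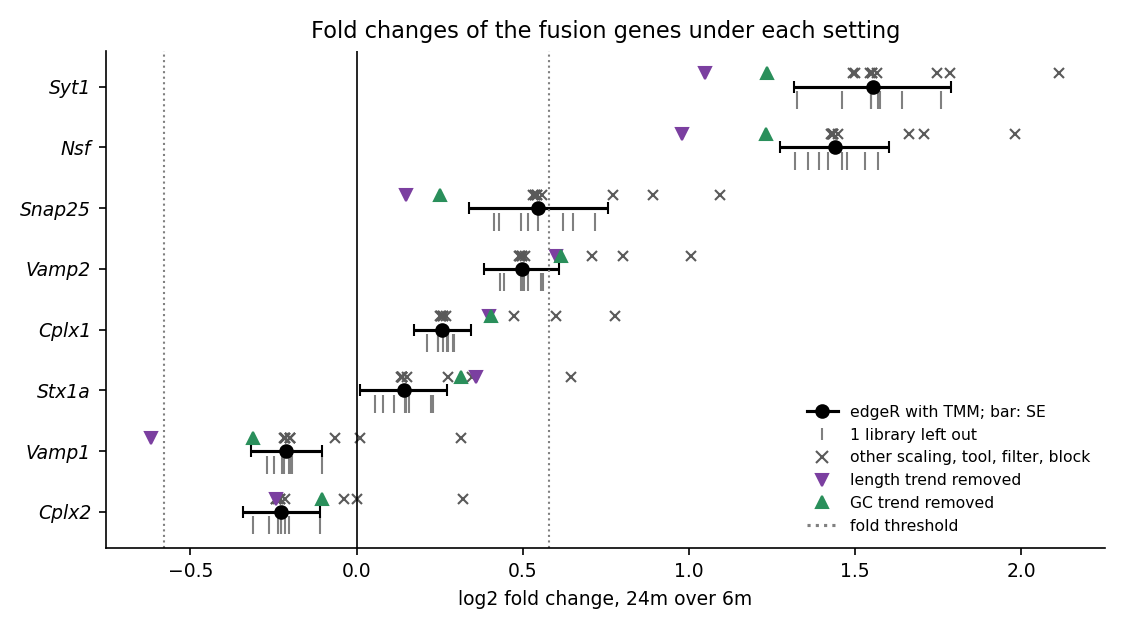
Log2 fold changes of the 8 fusion genes, 24m over 6m. Black points and bars are the edgeR estimates with SE, grey ticks leave out 1 library each, crosses use other scaling, tools, filters or a replicate block, coloured triangles remove the length or GC trend, and dotted lines mark the fold threshold of 0.58; every mark of Syt1 and Nsf lies beyond the threshold, and marks of Vamp1 and Cplx2 fall on both sides of 0.

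The fold changes were smaller for Snap25, Syt1 and Nsf once trends over gene length or GC content were removed, and larger for Stx1a, Vamp2 and Cplx1, while Vamp1 was more negative and Cplx2 differed between the corrections. Exonic lengths were 10009 bases for Snap25, 12899 for Syt1 and 12012 for Nsf, against 3219 for Stx1a, 3895 for Vamp2 and 3659 for Cplx1. With the length trend removed, Syt1 went from 1.55 to 1.05, Nsf from 1.44 to 0.98 and Snap25 from 0.55 to 0.15, while Stx1a went from 0.14 to 0.36 (padj = 0.0204), Vamp2 from 0.50 to 0.60 and Cplx1 from 0.26 to 0.40. Removal of the GC trend gave 1.24 for Syt1, 1.23 for Nsf, 0.25 for Snap25, 0.31 for Stx1a, 0.61 for Vamp2 and 0.40 for Cplx1. Vamp1 went from -0.21 to -0.62 with the length trend removed and to -0.31 (padj = 0.0324) with the GC trend removed, and Cplx2 from -0.23 to -0.24 and -0.10 (padj = 0.556). Scaling moved all of them together: the median log2FC of all tested genes was 0.21 with library totals alone and 0.52 with sums per exonic length.

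Mitochondrially encoded genes took 5.26 to 6.52% of counts in 6m and 3.18 to 3.69% in 24m, and the part of this difference in the fold changes was not tested. Neither was that of cell composition. Beside the marker counts that follow, 25.3% of all tested genes were called higher and 18.3% lower. The sums weigh each marker by its level, so abundant markers make up most of some of them. The 10 general neuron markers, none at 0 in any library, summed to 5367 to 5895 CPM in 6m and 4344 to 5290 CPM in 24m, with 0 called higher and 3 lower (Tubb3, Elavl4 and Gap43) and a median log2FC of -0.33. Of the 6 forebrain excitatory neuron markers 4 were called higher and 0 lower (summed 134 to 166 CPM in 6m, 162 to 246 CPM in 24m). Of the 6 inhibitory neuron markers 3 were higher and 2 lower (1202 to 1548 and 881 to 1137 CPM). Of the 7 cerebellum and hindbrain markers 4 were higher and 0 lower (264 to 498 and 271 to 475 CPM). Markers of astrocytes (5 of 8 higher, 1 lower; 2862 to 3790 and 2726 to 3806 CPM), oligodendrocytes (1 of 8 higher, 0 lower; 3519 to 4412 and 3825 to 4396 CPM), microglia (2 of 8 higher, 0 lower; 647 to 724 and 612 to 918 CPM) and endothelial cells (1 of 8 higher, 2 lower; 92.9 to 130.4 and 65.5 to 87.1 CPM) were detected in every library.

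Within 24m the fusion genes fell into opposite orders. Snap25, Cplx2, Syt1 and Nsf had their lowest 24m value in replicate 1 and their highest in replicate 4. Stx1a, Vamp1, Vamp2 and Cplx1 had their highest in replicate 1 and their lowest in replicate 4. The ratio of the highest to the lowest 24m library was 1.91 for Snap25, 1.49 for Cplx2, 2.44 for Syt1 and 1.63 for Nsf, and 1.46 for Stx1a, 1.11 for Vamp1, 1.31 for Vamp2 and 1.15 for Cplx1. At 6m the orders were different: Snap25, Stx1a, Vamp2, Cplx2, Syt1 and Nsf were highest in replicate 2, and Vamp1 and Cplx1 in replicate 4. Over all tested genes, 24m replicates 1 and 4 were also the libraries farthest from the others of 24m (0.636 and 0.508 on the log2 scale). The share of all tested genes with the same extremes was not counted, so these orders cannot be called particular to the fusion genes. They are a description, since replicates of one age have no order of their own and the genes were read in the same libraries.

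**Figure D3:**
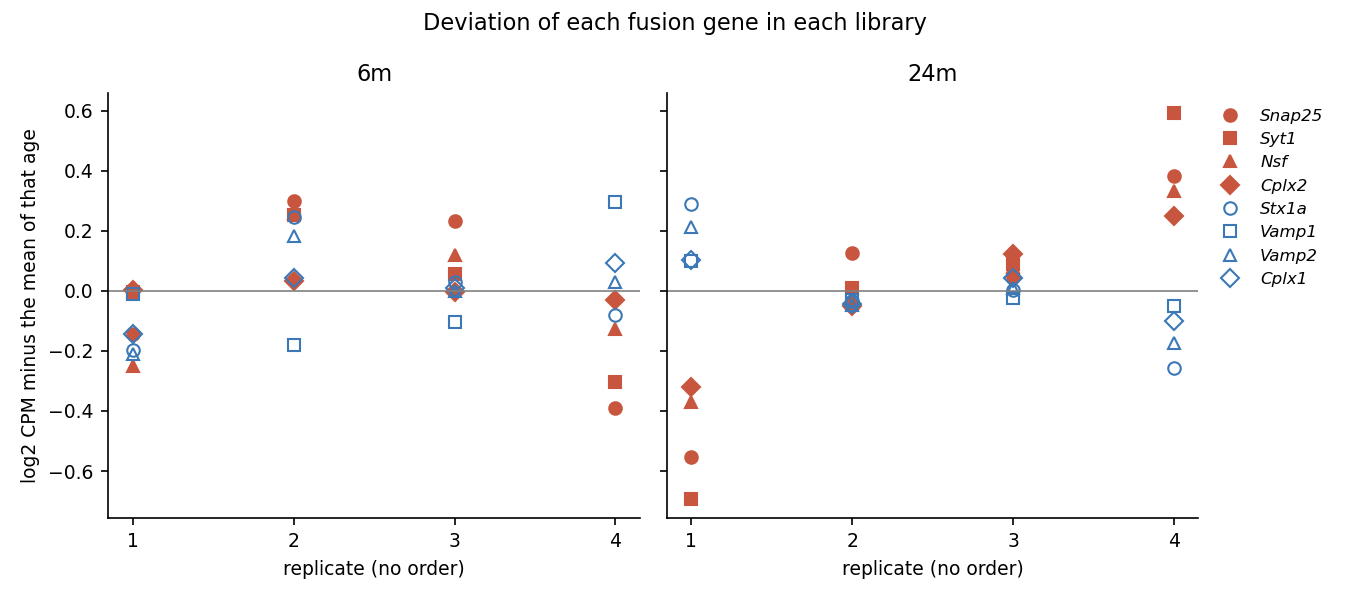
Deviation of each fusion gene from its mean within an age, in log2 CPM, for each library of 6m (left) and 24m (right). Filled red symbols are Snap25, Syt1, Nsf and Cplx2 and open blue symbols are Stx1a, Vamp1, Vamp2 and Cplx1, colours assigned from the order at 24m; at 24m the filled symbols are the lowest in replicate 1 and the highest in replicate 4, and the open symbols the reverse.

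Across all 8 libraries, the centred profiles of Vamp2 and Cplx1 were the most alike of the 28 pairs of fusion genes, with a root mean square difference of 0.141 on the log2 scale, followed by Stx1a with Cplx1 (0.144) and Syt1 with Nsf (0.187). Vamp1 and Syt1 were the least alike (0.961). By the same measure over 8784 genes of at least 10 CPM, the nearest genes were Pdp1 and Ptp4a1 to Snap25 (0.0542 and 0.0566), Slc17a7 and Rcor2 to Stx1a (0.0847 and 0.087), Anxa5 and Sympk to Vamp1 (0.054 and 0.0593), and Got2 and Syp to Vamp2 (0.0451 and 0.0474). They were Pex5 and Pisd to Cplx1 (0.0283 and 0.0305), Aifm1 and Ptpra to Cplx2 (0.0506 and 0.0613), Itpr1 and Reln to Syt1 (0.0561 and 0.0619), and Cpt1a and Pcyox1 to Nsf (0.0588 and 0.062). Of the genes named, Slc17a7 and Syp encode synaptic vesicle proteins, the glutamate transporter VGLUT1 and synaptophysin. All were picked by distance alone and not by function. The centred profiles include the difference between ages, so a small distance partly reflects a similar log2FC. The median distance of that pool was 0.308 (Vamp1) to 0.876 (Syt1).

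Levels of different genes were compared per length, as CPM per kilobase of exonic length. At 6m Cplx1 was the most abundant (138 ± 9.41), followed by Vamp2 (104 ± 11.6), Cplx2 (59.1 ± 1.06), Stx1a (55.5 ± 7.44), Snap25 (52.2 ± 11.4), Vamp1 (21.6 ± 3.27), Nsf (18.4 ± 2.94) and Syt1 (7.21 ± 1.12; SD, n = 4). Cplx2, Stx1a and Snap25 overlapped in range with one another, as did Vamp1 and Nsf, so their order is not resolved. At 24m the order was Cplx1 (165 ± 10.4), Vamp2 (147 ± 16.7), Snap25 (76.2 ± 19.2), Stx1a (61.3 ± 9.70), Cplx2 (50.5 ± 8.39), Nsf (49.7 ± 9.84), Syt1 (21.2 ± 7.35) and Vamp1 (18.6 ± 0.897). Cplx1 and Vamp2 overlapped, as did Syt1 and Vamp1 and each neighbouring pair from Snap25 to Nsf. These levels rest on the length used: with the canonical transcript, which is shorter than the union of all exons in every member but Cplx2, Vamp2 came first in both ages (359 ± 39.8 and 506 ± 57.4 CPM per kilobase), Snap25 reached 334 ± 83.8 at 24m, and Cplx2 (50.5 ± 8.39) and Syt1 (57.3 ± 19.9), which overlapped, had the lowest means at 24m.

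Several fusion genes have a close paralog, and reads from shared stretches can be assigned to either gene. Aligned coding sequences were 82.6% identical between Vamp1 and Vamp2 (over 270 aligned bases only, of 675 and 489), 80.8% between Cplx1 and Cplx2, 78.4% between Syt1 and Syt2 and 69.7% between Snap25 and Snap23. The longest identical run of bases was 18 for Vamp1 and Vamp2, 32 for the complexins, 26 for the synaptotagmins and 25, outside the coding part, for Snap25 and Snap23, all well under the length of a read. Of the 8 canonical transcripts, only Cplx2 shared stretches of at least 100 bases at 98% identity with transcripts of other genes, over 259 bases (5.25% of its length). The longest run of Vamp1 with Vamp2, of the complexins and of Syt1 with Syt2 lies in the coding part. Those of Vamp1 with Vamp2 and of Syt1 with Syt2 are printed with their neighbouring bases to show how soon the genes differ. The capitals mark the shared run, and all sequences are those of the spliced canonical transcripts annotated on GRCm39, read along the gene's strand.
Vamp1: gtggagGAGGTGGTGGACATCATGcgtgtg
Vamp2: gtggatGAGGTGGTGGACATCATGagggtg
Syt1: aaGCCAAGAACCTGAAGAAGATGGATGTgg
Syt2: agGCCAAGAACCTGAAGAAGATGGATGTag

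The Vamp1 stretch crosses the junction of exons 2 and 3 (chr6:125195655-125195894, plus strand) and so does that of Vamp2 (chr11:68980044-68980577, plus strand). The Syt1 stretch lies in exon 9 (chr10:108419747-108419776, minus strand) and that of Syt2 in exon 8 (chr1:134673544-134673573, plus strand) of the canonical transcripts.

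The ratio of paralogs within a library does not depend on a scaling factor common to all genes of a library, and it asks whether the make-up of a family differs with age. The ratios of Vamp1 to Vamp2 and of Cplx1 to Cplx2 differed between ages without overlap, each at p = 0.0286 by an exact two-sided permutation test, the smallest that 4 against 4 libraries allow. Benjamini-Hochberg adjustment gave 0.0477 over the 5 ratios compared and 0.0572 over the 4 described here, so the call at 0.05 depends on which ratios are counted. The log2 ratio of Vamp1 to Vamp2 was -0.62, -1.18, -0.92 and -0.55 in 6m and -1.63, -1.5, -1.55 and -1.39 in 24m. All 24m libraries thus held less Vamp1 per Vamp2 than any 6m library, a difference of -0.70 between means of -0.82 ± 0.29 and -1.51 ± 0.10. Trends over gene length were not removed from the ratios; the fits without that trend gave a log2FC of -0.62 for Vamp1 and 0.60 for Vamp2, farther apart than in the TMM fit (-0.21 and 0.50).

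The log2 ratio of Cplx1 to Cplx2 was 0.65, 0.80, 0.80 and 0.91 in 6m and 1.71, 1.30, 1.21 and 0.94 in 24m. It was higher in each 24m library, though only just so in replicate 4, with a difference of 0.50 between means of 0.79 ± 0.11 and 1.29 ± 0.32. Without 24m replicate 1 the difference was 0.36.

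The ratios of Syt1 to Syt2 and of Snap25 to Snap23 overlapped between ages. Syt2 encodes a related fast calcium sensor that is prominent in caudal brain regions, and the log2 ratio of Syt1 to Syt2 was 2.77, 3.10, 3.04 and 2.36 in 6m and 2.33, 2.41, 2.38 and 2.66 in 24m, a difference of -0.37 (exact permutation p = 0.114, adjusted 0.143 over the 5). Snap23, the SNAP25 relative found in most tissues, was far less abundant, and the log2 ratio of Snap25 to Snap23 was 7.90, 8.20, 8.25 and 8.10 in 6m and 7.92, 8.00, 8.52 and 8.34 in 24m, a difference of 0.08 (exact permutation p = 0.629).

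**Figure D4:**
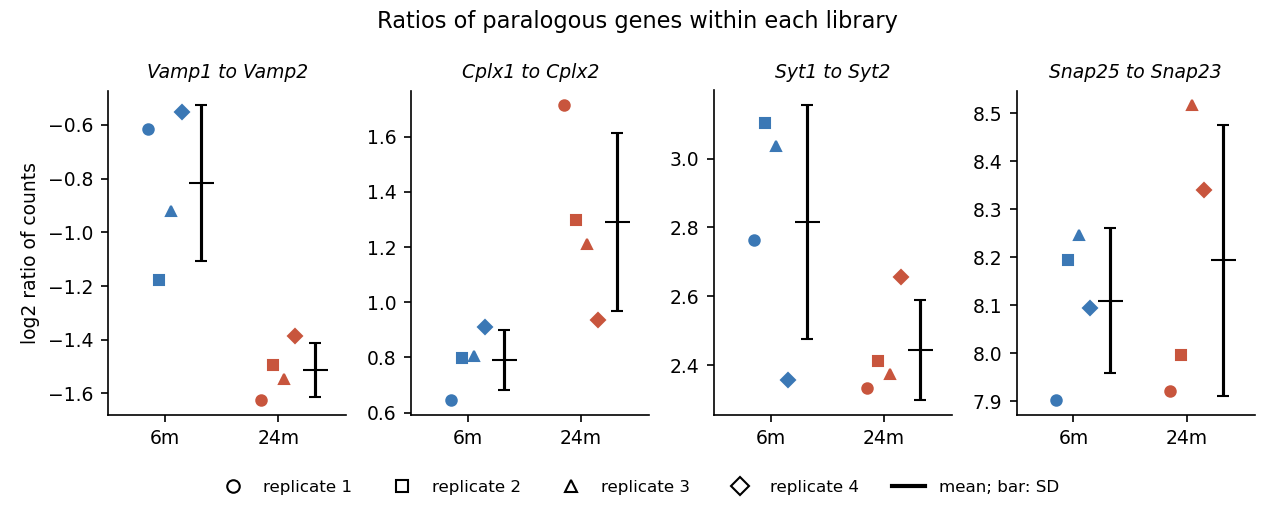
Log2 ratios of counts of 4 pairs of paralogous genes in each library of 6m and 24m; each panel has its own axis, which does not start at 0, points are libraries with the shape giving the replicate number, and bars give the mean and SD of 4 libraries. The ages do not overlap for Vamp1 to Vamp2 and Cplx1 to Cplx2, and they overlap for Syt1 to Syt2 and Snap25 to Snap23.

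The genes around the fusion machinery were read in 5 lists chosen by function, which share no gene with the 8. The lists were fixed with earlier results of these data known, so their counts are a description. Of 62 genes, 60 were tested; 31 were called higher and 5 lower, where 25.3% and 18.3% of all tested genes were, and their median log2FC was 0.69. With library totals alone 36 were higher and 2 lower, and with sums per exonic length 44 and 1. With the length trend removed 24 were higher and 4 lower, and with the GC trend removed 29 and 4. Counts of the single lists are from the TMM fit alone. In the 14 tested docking, priming and SNARE regulators, 9 were higher and 1 lower, with a median of 0.84. Stxbp5l (tomosyn-2, an inhibitor of SNARE assembly) rose by 2.12 ± 0.35 (padj = 0.000711), and Doc2b, a calcium-binding protein of release, by 1.41 ± 0.12 (padj = 3.29e-05). Stxbp2, which regulates exocytosis in many tissues, fell by 0.64 on the log2 scale (padj = 0.00413). The smallest calls on the higher side were Cadps2 (0.64) and Unc13c (0.82), priming factors, the latter with overlapping ages.

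Among the other SNAREs 2 of 10 tested genes were higher, among them Snap29 (1.55 ± 0.16, padj = 6.94e-05), and 2 were lower, with a median of 0.27. Of all tested genes, 25.3% were called higher and 18.3% lower. Stx4a, a syntaxin of the plasma membrane in many tissues, went from 157 ± 16.5 to 71.3 ± 4.46 CPM (-1.14 ± 0.09, padj = 3.2e-05), and Vamp8, a SNARE of endosomes and lysosomes, from 54.5 ± 11.6 to 30.1 ± 13.8 CPM (-0.85 ± 0.28, padj = 0.0229) with overlapping ages. In the complexin and synaptotagmin list 8 of 14 tested genes were higher and 0 lower (2 were lower by padj alone, Syt3 and Syt5), with a median of 0.79. The largest rises were in Syt2 (13.1 ± 1.21 to 49.1 ± 12.7 CPM, log2FC 1.91, padj = 5.96e-05), Syt4 (1.74) and Syt7, a slow high-affinity calcium sensor (41.8 ± 4.68 to 127 ± 26.5 CPM, log2FC 1.6, padj = 6.36e-05). The smallest were in Syt13 (0.77), Syt9 (0.81) and Syt11 (1.02).

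The partners of Nsf in disassembly moved unequally. Napb, the brain form of the SNAP adaptors that recruit NSF to SNARE complexes, rose from 15.9 ± 4.71 to 70.6 ± 22.7 CPM (log2FC 2.15 ± 0.27, padj = 0.000191), and Napg from 18.5 ± 3.64 to 42.2 ± 5.37 CPM (1.19 ± 0.15, padj = 0.000215). Napa, the most abundant of the adaptors, was at 403 ± 20.5 and 363 ± 46.6 CPM with overlapping ages (-0.15 ± 0.10, padj = 0.218). Dnajc5, a chaperone of SNAP25 on vesicles, rose by 1.70 ± 0.16 (padj = 5.11e-05). Sncb (beta-synuclein) was called lower by -0.58 ± 0.18 (padj = 0.0175), with overlapping ages and at the fold threshold. The list of 8 thus held 3 genes called higher and 2 lower, with a median of 0.03, where 25.3% and 18.3% of all tested genes were called.

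Other vesicle proteins were mostly higher, 9 of 14 with 0 lower and a median of 0.89, where 25.3% and 18.3% of all tested genes were called. Sv2c and Sv2b, vesicle glycoproteins that bind synaptotagmin, had the largest log2FC (2.72 ± 0.42, padj = 0.000524, and 1.94 ± 0.21, padj = 0.000102), although Sv2c was at only 1.15 ± 0.205 CPM in 6m. Slc17a6, the glutamate transporter VGLUT2, rose by 1.31 ± 0.28. The smallest rises were in Synpr (0.75), Syngr1 (0.89) and Syn1 (0.89). Rab3a, the vesicle GTPase, was below 6m in all 24m libraries with a log2FC of -0.46 ± 0.11 (padj = 0.00546), short of the fold threshold.

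**Figure D5:**
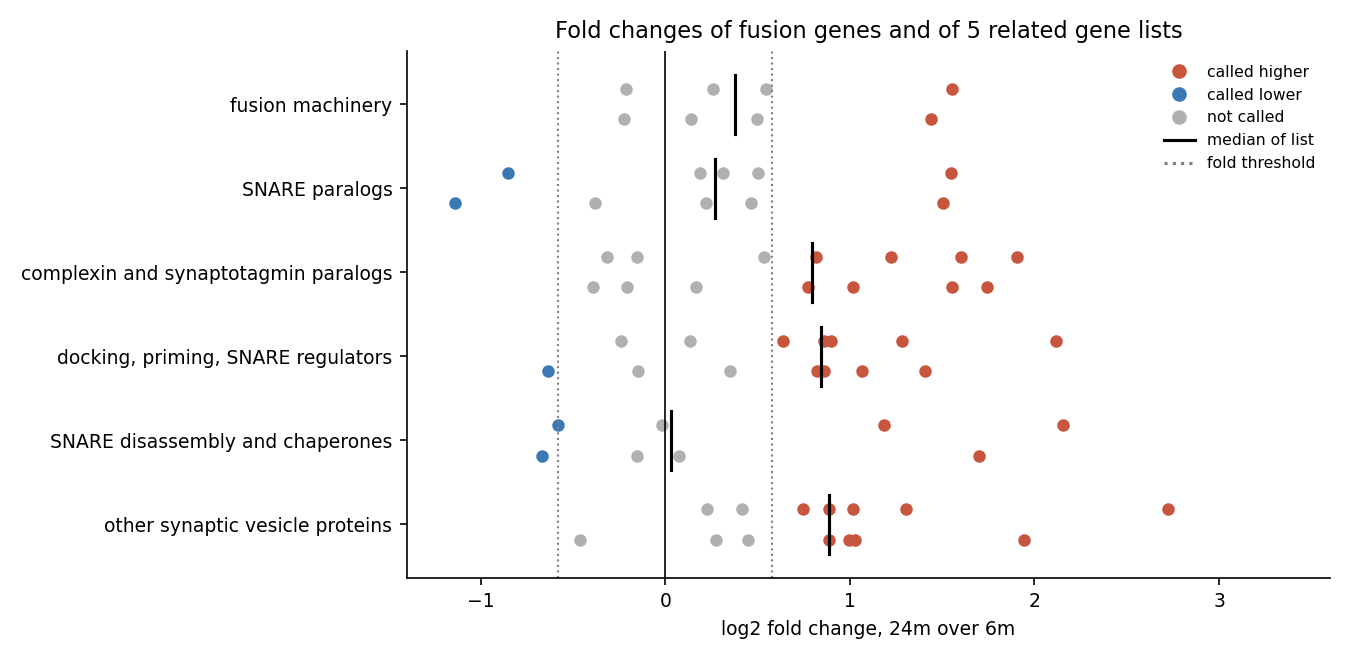
Log2 fold changes, 24m over 6m, of the 8 fusion genes and of the 60 tested genes of 5 related lists; each point is a gene, red if called higher, blue if called lower and grey if not called, with the median of each list as a black line and the fold threshold as dotted lines. Medians run from 0.03 (disassembly and chaperones) to 0.89 (other vesicle proteins), and the 8 fusion genes lie between (0.38).

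Promoters of the fusion genes were searched on both strands for 3 short motifs, from 250 bases before to 50 after the start of the canonical transcript. The GC box (GGGCGG) was found in 5 (Stx1a, Vamp1, Vamp2, Cplx1 and Syt1) and in 52.9% of 16573 promoters of tested genes. The cAMP response element (TGACGTCA) was found in 0 of the 8 and in 2.87% of all. TATAAA was found in 1, Snap25, and in 9.07% of all. The Snap25 promoter had a GC content of 38.7%, the lowest of the 8, against a median of 57.3%. For TATAAA, 1 of 8 is near the share of all promoters. The Snap25 match nearest to the start begins 28 bases before it (chr2:136555178-136555203, plus strand, GRCm39), with an overlapping match on the other strand. A further match begins 219 bases before the start. The nearest match is shown with the motif in capitals.
Snap25: tttgggtgttTATAAAagattgaaat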

How the data were processed

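Poly(A) RNA of 8 brain samples was sequenced from both ends of strand-marked libraries. The authors trimmed reads (Trim Galore 0.4.11), aligned them to GRCm39 (HISAT2 2.1.0) and deposited whole-number counts per Ensembl gene from featureCounts, not normalized. Strand and multimapping settings are not given in the sources used here, so paralogs and overlapping genes carry that uncertainty (exonic overlap with an antisense gene was 11 bases for Snap25 and 67 for Stx1a, and 0 for the others). Identifiers were matched to GENCODE vM39 of the same assembly (22281 of 22430). From the counts, genes with more than 5 in at least 4 libraries were tested with edgeR 4.0.16 (R 4.3.3; quasi-likelihood, TMM factors, age as the only term, Benjamini-Hochberg over 16730 genes), and CPM used TMM-scaled totals. Levels per length were CPM per kilobase rather than TPM-like values, since sums per length shifted the ages against each other.

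Paralog ratios used counts plus 0.5 and exact permutation over 70 assignments. Every library of an age came from a separate animal. Alternatives were library totals, DESeq2 1.42.0, limma-voom 3.58.1, other filters, each library left out, a replicate block, length and GC trends removed, and, added after the data were seen, sums per exonic length. Members and lists were chosen with earlier results of these data known. Genes named from a list were up to 3 called genes with the largest and up to 3 with the smallest log2FC at a mean of at least 1 CPM; likeness named 2 genes per member at 10 CPM or more. Others (Napa, Rab3a, Snap23, Syt3, Syt5 and the neuron markers) were named after their values were seen. Vamp7 was not matched to a single identifier and Cplx4 was below the filter; neither was tested. Of the ratios 1, and of the list genes 3 list genes, although they enter the counts, are not reported here by name. Protein sequences were not used here.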

Additional observations from a re-analysis of the deposited data

Results flagged for a closer look

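Vamp1 at 24m had 1 library far from the others: replicate 1 was at 7.75 on the log2 CPM scale against 7.60 to 7.62 for replicates 2 to 4, and its gap to the nearest was 0.83 of the whole range, just above Dixon's 95% critical value for 4 libraries. The difference is small in CPM (214 against 193 to 197), and 24 groups of 4 were examined, of which chance would be expected to set apart about 1 in 20.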

How the results depend on the processing

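Syt1 and Nsf were called higher under every alternative run. The number of fusion genes called higher was 2 with TMM (25.3% of all tested genes were called higher) and 4 with library totals alone (32.6%), 5 with DESeq2 on quantile-normalized counts (21.4%), 3 (with Vamp2) with the length (21.4%) or the GC trend (23.2%) removed, 5 by padj without the fold threshold (32.7%) and 6 with sums of counts per exonic length (45%), and 2 to 3 when 1 library was left out (3, with Snap25, without 6m replicate 2 or 3 or 24m replicate 1). The number called lower was 0, and 1 (Vamp1) with the length trend removed (17.2% of all tested genes). The log2FC of Vamp1 was reversed with library totals (0.011) and with sums per exonic length (0.31). That of Cplx2 was reversed likewise (0.00048 and 0.32). Under these scalings the median log2FC of all tested genes was 0.21 and 0.52. Of the list genes, 31 were higher (24 with the length trend removed, 29 with the GC trend removed, 36 with library totals, 44 with sums per exonic length and 28 to 33 with 1 library left out) and 5 lower (4, 4, 2 and 1 under the same settings, 5 without 6m replicate 2 or 3 or 24m replicate 1 and 3 without any other library).

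With 1 library left out, the smallest possible p of a paralog ratio is 0.0571, so none can pass 0.05. The difference then ranged from -0.82 to -0.61 for Vamp1 to Vamp2, 0.36 to 0.62 for Cplx1 to Cplx2 and -0.52 to -0.28 for Syt1 to Syt2. For Snap25 to Snap23 it ranged from -0.025 (without 24m replicate 3) to 0.17. Same-numbered libraries of the 2 ages share only a number: correlations of their deviations were 0.27, 0.14, 0.08 and -0.35. With the replicate block the fusion genes called stayed at 2 higher and 0 lower, and edgeR's padj of Cplx1 was 0.0829. Exact sign flips of the 4 pairs, whose smallest p is 0.125, gave differences of -0.70 and 0.50 for the first 2 ratios at p = 0.125. Depth did not limit the fusion genes, which had 4933 to 84419 counts per library; 4 animals per age limit the precision.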
